A study of Homo sapiens with 4 samples.

Results

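The genes described here encode the clustered histones. They were found by symbol: a gene belonged when the only symbol of a probe set began with H1-, H2AC, H2BC, H3C or H4C and a digit. The pattern took 50 genes. H1-10-AS1, an antisense RNA and no histone gene, was left out, so that 49 of the 19775 genes measured were described. They comprised 10 linker histone genes, 9 H2A genes, 14 H2B genes, 7 H3 genes and 9 H4 genes, 3 of them pseudogenes. By the RefSeq gene table, 42 lay on chromosome 6 and 2 on chromosome 1, where human histone genes are clustered. The remaining 5 lay elsewhere (H1-10, H1-8, H1-7, H1-9P and H2BC12L), although the pattern takes them.

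RNA came from KM-H2, an established cell line derived from Hodgkin lymphoma. A pair of Affymetrix arrays held cells with PTPN1 knocked down by siRNA, and the other pair held cells given a non-silencing control. The labels number the arrays of each group 1 and 2 and call them technical replicates, so SEs and p-values measure the spread between these arrays and not between cultures. No label states the dose, the time after transfection or the siRNA sequences. All values are log2 signals made by the authors with RMA, a method that corrects background, equalises the distributions of the arrays and summarises the probes of each probe set. Each gene was read from its brightest probe set. Values are given for non-silencing arrays 1 and 2, then against them for knockdown arrays 1 and 2, and a difference is knockdown minus non-silencing.

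In a nucleosome, DNA is wrapped around a core of H2A, H2B, H3 and H4, and linker histone H1 binds where the DNA enters and leaves. Dividing cells make most of these proteins during S phase, when new DNA must be packaged, from small clustered genes without introns. Their messenger RNAs typically end in a stem-loop bound by SLBP and not in a poly(A) tail, although several clustered genes can also give polyadenylated transcripts. Replication-independent histones such as H2A.Z and H3.3 come from separate genes, mostly with introns and poly(A) tails.

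The promoters of the genes that the results turn on are shown first, with any matches to the elements sought. RefSeq promoters of assembly GRCh38.p14 were available for 43 of the 49 genes, and the 250 bases before each start site were searched on both strands. The letters sought were ATTTGCAT, the octamer element recognised by POU-domain factors, TATAAA, the core of the TATA box, CCAAT, the CCAAT box, and AAACACA, the element known as the H1 box. Sequences run 5′ to 3′ along the gene's own strand and end at the base before the start site, and capitals mark these letters or their reverse complements. TATAAA matches on opposite strands can overlap, as in TTTATAAA. H2BC12 was the brightest H2B gene. Its window is chr6:27146859-27147108 on the minus strand, with the octamer at position -46 counted back from the start site and TATAAA at -27.
H2BC12: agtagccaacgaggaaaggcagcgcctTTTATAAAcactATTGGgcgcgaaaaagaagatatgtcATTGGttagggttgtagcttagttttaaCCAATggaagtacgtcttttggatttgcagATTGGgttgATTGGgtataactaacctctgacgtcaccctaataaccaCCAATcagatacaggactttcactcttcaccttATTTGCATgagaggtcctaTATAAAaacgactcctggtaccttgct

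H2BC21, on chromosome 1, differed most between the array numbers. Its window is chr1:149886683-149886932 on the minus strand, with the octamer at the same position, -46, and TATAAA at -30.
H2BC21: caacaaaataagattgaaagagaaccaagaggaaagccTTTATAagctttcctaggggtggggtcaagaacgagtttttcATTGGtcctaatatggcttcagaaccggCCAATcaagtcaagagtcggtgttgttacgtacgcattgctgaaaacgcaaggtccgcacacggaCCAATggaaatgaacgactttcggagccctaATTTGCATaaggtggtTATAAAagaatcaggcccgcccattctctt

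H2AC6 and H2BC4 are transcribed away from each other, and their windows share 245 bases. The window of H2AC6 is chr6:26123922-26124171 on the plus strand, with the octamer on the opposite strand at -130.
H2AC6: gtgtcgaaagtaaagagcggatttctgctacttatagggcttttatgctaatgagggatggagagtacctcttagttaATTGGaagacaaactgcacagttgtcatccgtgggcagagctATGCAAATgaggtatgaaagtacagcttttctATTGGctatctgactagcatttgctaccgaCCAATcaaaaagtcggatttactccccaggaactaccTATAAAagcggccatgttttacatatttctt

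H1-2 and H2AC25 had knockdown differences of the size of the bright H2B genes but differed little between array numbers. The window of H1-2 is chr6:26056471-26056720 on the minus strand, with AAACACA at -119 and CCAAT at -57. The window of H2AC25 is chr1:228457874-228458123 on the minus strand, with CCAAT at -66 and no match to ATTTGCAT or TATAAA.
H1-2: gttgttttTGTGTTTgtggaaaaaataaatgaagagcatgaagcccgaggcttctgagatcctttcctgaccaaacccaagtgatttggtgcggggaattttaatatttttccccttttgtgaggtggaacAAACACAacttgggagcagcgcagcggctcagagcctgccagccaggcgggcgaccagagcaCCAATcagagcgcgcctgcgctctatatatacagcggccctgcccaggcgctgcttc
H2AC25: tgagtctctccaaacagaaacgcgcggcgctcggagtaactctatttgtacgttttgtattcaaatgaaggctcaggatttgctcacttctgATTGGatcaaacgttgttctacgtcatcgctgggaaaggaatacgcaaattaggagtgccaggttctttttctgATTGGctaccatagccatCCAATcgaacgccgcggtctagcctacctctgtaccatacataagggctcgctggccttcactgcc

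The octamer letters stood in 16 of the 43 promoters (37.2%), against 1.63% of all 35116 promoters of this length. They were in 10 of 13 H2B promoters and 6 of 8 H2A promoters, and in 0 of the linker, H3 and H4 promoters. The windows of 4 pairs of genes overlap. The pairs H2AC6 with H2BC4, H2AC14 with H2BC14 and H2AC17 with H2BC17 each share 1 octamer, counted for both genes. AAACACA stood in 7 promoters, all of linker genes, of which 9 had a sequence, against 4.82% of all promoters. TATAAA was in 65.1% of the histone promoters and 10.7% of all, and CCAAT in 86% and 32%. CCAAT was in all 13 H2B, 8 H2A and 6 H3 promoters but in 2 of 7 H4 promoters. A match is a description of these letters and not evidence of binding.

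**Figure D1:**
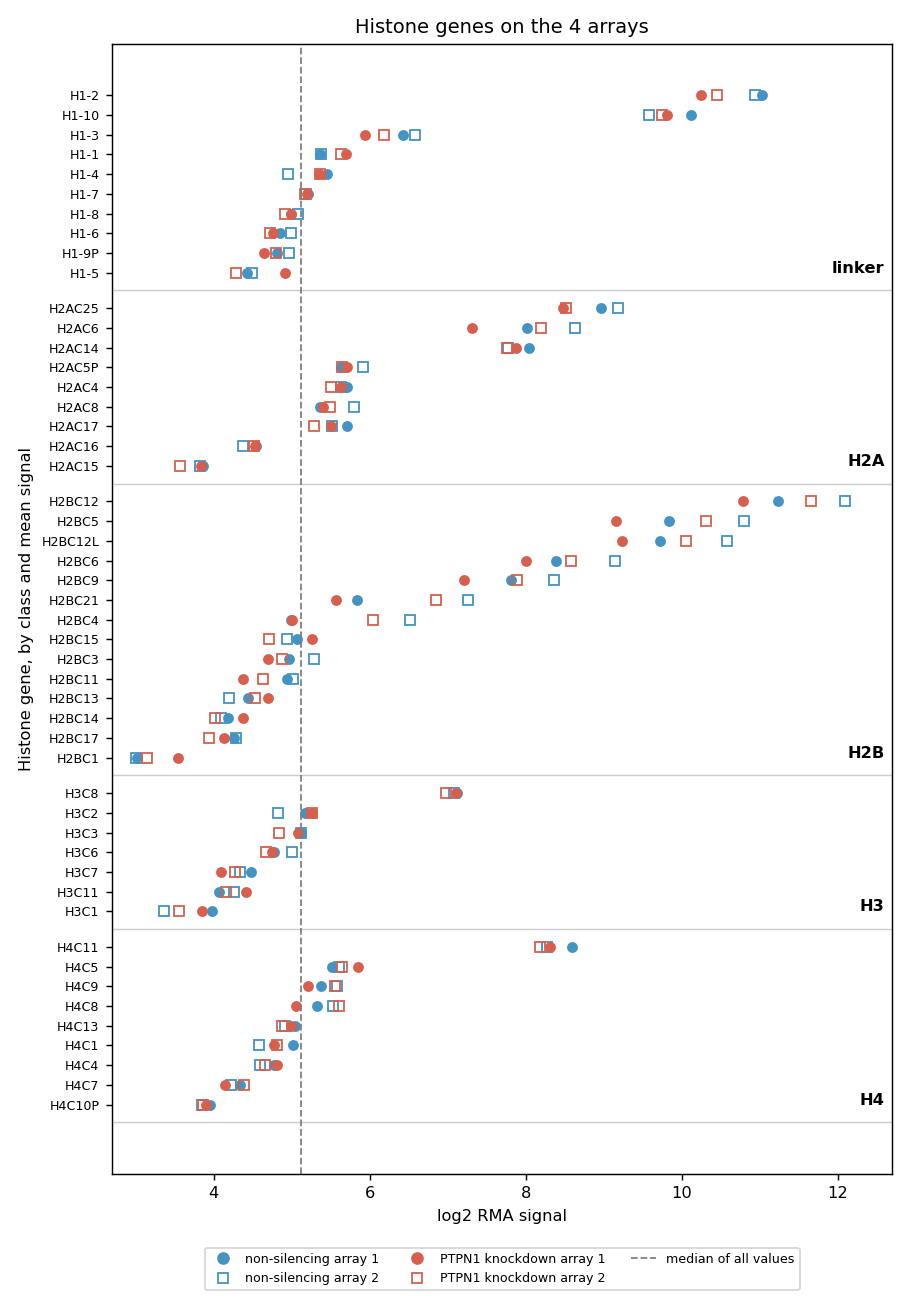
Log2 RMA signal (horizontal axis) of the 49 histone genes, by class and mean signal, with 1 point per array: circles for arrays numbered 1, squares for arrays numbered 2, blue for non-silencing and red for PTPN1 knockdown. The dashed line is the median of all values, 5.11. H1-2 shows both red points left of both blue points, whereas the bright H2B genes show squares right of circles in both groups.

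The plot of signal by array shows 26 of them at or above 5.11, the median of all values, and 23 below it, where RMA compresses differences. Mean signals over the 4 arrays ran from 3.18 for H2BC1, a testis H2B gene, to 11.44 for H2BC12. The brightest linker genes were H1-2 with a mean of 10.67, H1-10 with 9.82 and H1-3 with 6.28. Signals are set side by side only to show which genes were well above the median, since probe sets differ in affinity and carry no length scale. Of the H2A genes, 7 of 9 were at or above the median, of the H2B genes 7 of 14, of the H3 genes 2 of 7, of the H4 genes 4 of 9 and of the linker genes 6 of 10. Histone genes of a class have nearly identical coding sequences. For 12 of the 49, the brightest probe set has a suffix (_x_at or _s_at) that Affymetrix gives where probes can also match other transcripts, so a gene's signal can include its neighbours in sequence.

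Facts of the whole series bear on the reading of these genes. PTPN1, the phosphatase gene targeted, read 8.16 and 8.40 against 7.0 and 7.36, a difference of -1.10 (SE 0.18, limma adjusted p 0.769), or 46.8% of the non-silencing signal. Its other probe sets, all with mean signals below the median of all values, differed by 0.01, -0.07 and -0.03. Across 19775 genes, 0 had a limma adjusted p under 0.05 and 509 (2.57%) an unadjusted p under 0.05. All 8 markers of Hodgkin cells that were sought were at or above the median, TNFRSF8 (CD30) between 8.16 and 9.32. Markers of other cells were partly present, with 3 of 5 B cell markers, 2 of 4 T cell markers, 3 of 4 monocyte markers and 1 of 5 fibroblast markers at or above the median. MS4A1, POU2AF1, CD3E, CD2, LYZ, COL1A2, COL3A1, DCN and LUM were below it. The summed log2 signal of the T cell markers ran from 26.9 to 27.2 without and from 26.3 to 26.6 with knockdown, and that of the Hodgkin cell markers from 66.6 to 66.9 and from 67.8 to 70.6. Their part in the histone differences was not tested.

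Knockdown arrays gave lower signals than non-silencing arrays for most clustered histone genes, but no gene passed the test. The difference was below 0 for 37 of 49 genes (75.5%), against 51.8% of all genes. Among the 26 bright ones it was below 0 for 22 (84.6%), against 48.7% of genes at or above the median signal. Its median over the 49 was -0.10, with -0.09 within number 1 and -0.17 within number 2, beside a median of -0.0066 over all genes. Single genes ran from -0.63 for H1-2 to 0.33 for H2BC1. The limma adjusted p was 1 for each of the 49 (0 called, against 0% of all genes), and 4 had an unadjusted p under 0.05, all lower in the knockdown arrays (H1-2, H1-3, H2AC25 and H2BC11), against 2.57% of all genes in either direction and 1.11% lower. In bulk RNA, fewer cells in S phase and less histone RNA per cell cannot be told apart. The labelling can also favour polyadenylated transcripts, so the signals need not stand for all histone RNA.

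Both knockdown arrays lay below both non-silencing arrays for 13 of the 49 genes (26.5%), against 15% of all genes, and above both for 5, against 12.4%. Of these, 4 and 3 were among the 26 bright genes, where the background was 11.9% and 12%, so 9 of the 13 were dim genes. Within each array number the knockdown array was the lower one for 28 of 49 (57.1%), against 29.8% of all genes. A difference of at least 1.25-fold downward within both array numbers, a count chosen after its values were seen, was reached by 10 of 49 genes (20.4%), against 1.54% of all genes. The 10 were H1-2, H1-3, H2AC25, H2AC6, H2BC12, H2BC5, H2BC12L, H2BC6, H2BC9 and H2BC11. No histone gene was 1.25-fold higher within both numbers, against 1.65% of all genes. Of the 10, all but H2BC11 were at or above the median signal, where the background was 1.73%. H1-2, H1-3, H2AC25, H2BC12 and H2BC11 among them were read from probe sets without the suffix for shared probes. A missing suffix does not exclude shared probes. Some probe sets without it name several histone genes, such as 1 for 14 H4 genes and 1 for 10 H3 genes. The counts are of genes that can share probe matches, not of independent genes.

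**Figure D2:**
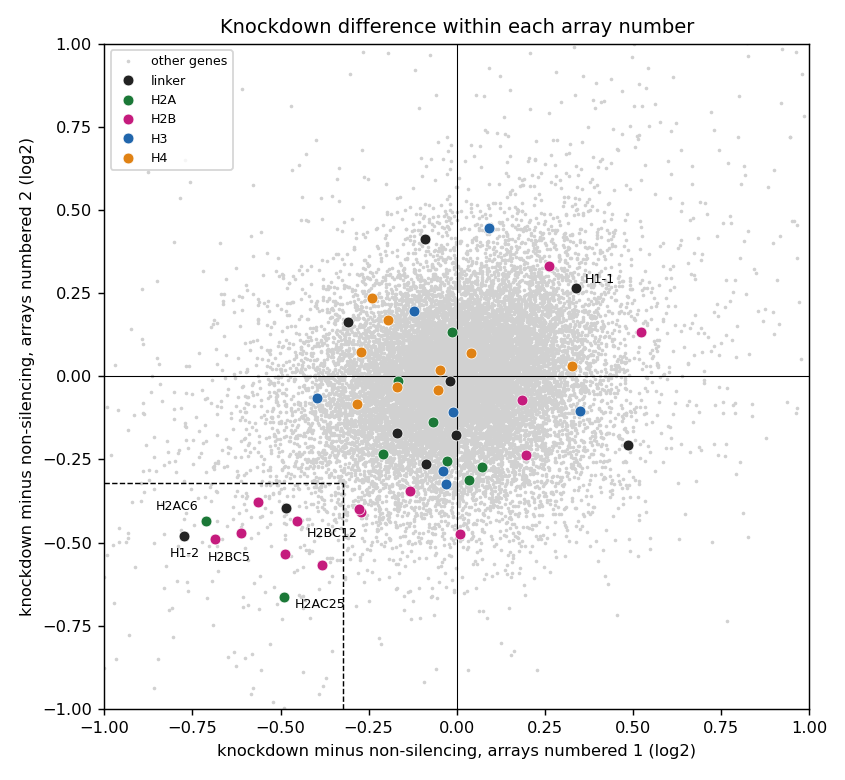
Knockdown minus non-silencing difference (log2) within number 1 (horizontal axis) and within number 2 (vertical axis), for histone genes by class (coloured) and all other genes (grey). Dashed lines mark a 1.25-fold lower signal, and 236 other genes lie beyond the axes. 10 histone genes lie in the lower left box and H1-1 lies at upper right.

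H1-2 had the most negative difference of the 49 genes. This linker histone gene read 11.02 and 10.93 against 10.25 and 10.45. Both knockdown arrays were below both non-silencing arrays, and the array numbers differed little. The difference was -0.63 (SE 0.14, limma unadjusted p 0.00631, adjusted p 1), which is 64.7% of the non-silencing signal, and it ran from -0.73 to -0.53 when each array was left out. H1-3, another linker gene of chromosome 6, read 6.42 and 6.59 against 5.94 and 6.19, a difference of -0.44 (SE 0.15) with no overlap between the groups.

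The linker class did not move as a block. H1-1 read 5.36 and 5.37 against 5.70 and 5.63, so it lay 0.30 higher (SE 0.12) with no overlap. H1-10, the replication-independent linker histone gene outside the clusters, read 10.12 and 9.58 against 9.81 and 9.74. Its groups overlapped, and its difference of -0.07 turned to 0.20 without non-silencing array 1. The class median was -0.08, and H1-4 and H1-5 lay above 0 with overlapping groups.

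H2AC25 was the brightest H2A gene among those read from probe sets that name a single gene, and 1 of 2 members on chromosome 1. It read 8.97 and 9.18 against 8.48 and 8.52. The groups did not overlap, and the difference of -0.58 (SE 0.14, limma unadjusted p 0.00878, adjusted p 1) corresponds to 67.1% of the non-silencing signal. Its other probe set lay below the median of all values and differed by -0.19. H2AC6 read 8.02 and 8.63 against 7.31 and 8.20. Its difference of -0.57 (SE 0.36) was as large as that of H2AC25, but its groups overlapped, since array 2 exceeded array 1 in each group. With each array left out it ran from -1.02 to -0.13, and that of H2AC25 from -0.68 to -0.47. The H2A class had a median of -0.14, with 8 of 9 genes below 0. H2AC17 differed by -0.22 without overlap, and H2AC14, with 8.05 and 7.78 against 7.88 and 7.76, differed by -0.09 and by 0.04 without non-silencing array 1.

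H2B genes had the lowest class median, -0.34, with -0.27 within number 1 and -0.40 within number 2. All 7 H2B genes at or above the median signal were below 0, with a median of -0.48, and 6 of the 14 H2B genes reached 1.25-fold within both numbers. H2BC12 read 11.24 and 12.09 against 10.79 and 11.66. Each knockdown array was below the non-silencing array of its own number, with differences of -0.45 and -0.44, but knockdown array 2 was above non-silencing array 1. The pooled difference of -0.44 (SE 0.40) was therefore close to its SE, and it ran from -0.88 to -0.01 when each array was left out.

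H2BC5, H2BC12L, H2BC6, H2BC9 and H2BC21 had the same order of arrays as H2BC12. H2BC5 read 9.84 and 10.80 against 9.16 and 10.31, a difference of -0.59 (SE 0.49) that was -0.01 without knockdown array 1 and -1.16 without knockdown array 2. Its second probe set read 9.28 and 9.59 against 8.67 and 9.14, a difference of -0.53. H2BC12L, a close copy on chromosome 21, read 9.72 and 10.58 against 9.24 and 10.05. By the brightest probe set of H2BC5 and by that of H2BC12L, knockdown array 2 lay between the non-silencing arrays, whereas the second probe set of H2BC5 showed no overlap. H2BC6 read 8.38 and 9.15 against 8.0 and 8.58. H2BC9 read 7.82 and 8.37 against 7.20 and 7.89. Their differences were -0.51 for H2BC12L, -0.48 for H2BC6 and -0.54 for H2BC9. With each array left out they ran from -0.94 to -0.08, from -0.86 to -0.09 and from -0.89 to -0.20.

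The class value moved with the array left out. Without non-silencing array 2 the H2B median was -0.08 and without knockdown array 1 it was -0.11, whereas it was -0.66 without non-silencing array 1 and -0.68 without knockdown array 2. H2BC21 read 5.84 and 7.26 against 5.57 and 6.85, and its difference of -0.34 became 0.37 without non-silencing array 2. H2BC4 read 4.99 and 6.52 against 5.0 and 6.05, so that the arrays numbered 1 did not differ downward. Its difference of -0.23 became 0.53 without non-silencing array 2.

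Dimmer H2B genes were split. H2BC11 read 4.94 and 5.01 against 4.38 and 4.63, a difference of -0.47 (SE 0.15) without overlap. H2BC3 read 4.97 and 5.28 against 4.69 and 4.88, a difference of -0.34 without overlap. H2BC1 read 3.02 and 3.01 against 3.54 and 3.14, which is 0.33 higher, and H2BC13 lay 0.30 higher. All 4 genes had mean signals below the median of all values, so the sizes are uncertain.

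Read from probe sets that name a single gene, H3 and H4 genes differed little. Only 2 of 7 H3 genes were at or above the median signal. A probe set that names 10 H3 genes, brighter than that of H3C8, differed by -0.40 and is described further below. The H3 median was -0.06 and the H4 median -0.01, and 0 of these 16 genes reached 1.25-fold within both numbers. H3C8, the brightest H3 gene, read 7.12 and 7.09 against 7.11 and 6.98. H3C2 read 5.17 and 4.82 against 5.26 and 5.27, which is 0.27 higher without overlap. H3C7, H3C6 and H3C3 lay lower without overlap, by -0.23, -0.18 and -0.16, all at mean signals below the median. The other, dimmer probe set of H3C6 differed by 0.10. H4C11, the brightest H4 gene by these single-gene probe sets, read 8.59 and 8.27 against 8.31 and 8.19, a difference of -0.18 with overlapping groups. H4C5 lay 0.18 higher without overlap, and H4C9 differed by -0.10 with overlap.

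Arrays numbered 2 gave higher signals than arrays numbered 1 for 8 histone genes, in the non-silencing and in the knockdown pair alike. The number is no condition of the study, and it was tested in limma with terms for group and number. All 7 bright H2B genes and H2AC6 passed at an adjusted p under 0.05, which is 16.3% of the 49 genes, against 5.41% of all genes, and 7.83% of genes at or above the median signal, higher in arrays numbered 2, and 9.85% called in either direction. The number 2 minus number 1 difference was 1.35 for H2BC21 (SE 0.10, limma adjusted p 0.00782), 1.29 for H2BC4, 1.05 for H2BC5 and 0.86 for H2BC12. It was 0.83 for H2BC12L, 0.75 for H2AC6, 0.67 for H2BC6 and 0.62 for H2BC9. For these 8 genes it exceeded the knockdown difference in size.

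H1-2 and H2AC25 did not share this. Their number differences were 0.06 and 0.13, with limma adjusted p of 0.811 and 0.503, and that of H1-10 was -0.31. The H2B class had a median number difference of 0.43, beside -0.02 for all genes. Without the probe sets that carry a shared-probe suffix, H2BC12, H2BC4 and H4C8 passed. For 6 of the 8 genes no probe set was then left, and the other 2, H2BC12 and H2BC4, still passed. Probe sets without the suffix can also share probes between histone genes. The 3′ minus 5′ signal of the beta-actin control probe sets was 1.31 and 1.33 for number 1 and 0.972 and 0.969 for number 2 (non-silencing, then knockdown), and that of GAPDH 0.319 and 0.293 against 0.212 and 0.258. COL1A1, the only fibroblast marker at or above the median, read 9.36 and 10.01 against 8.63 and 9.78, and so also lay higher in the arrays numbered 2. The summed signal of the 5 fibroblast markers ran from 26.8 to 27.4 and from 26.1 to 27.1. The part of these measures in the histone result was not tested.

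**Figure D3:**
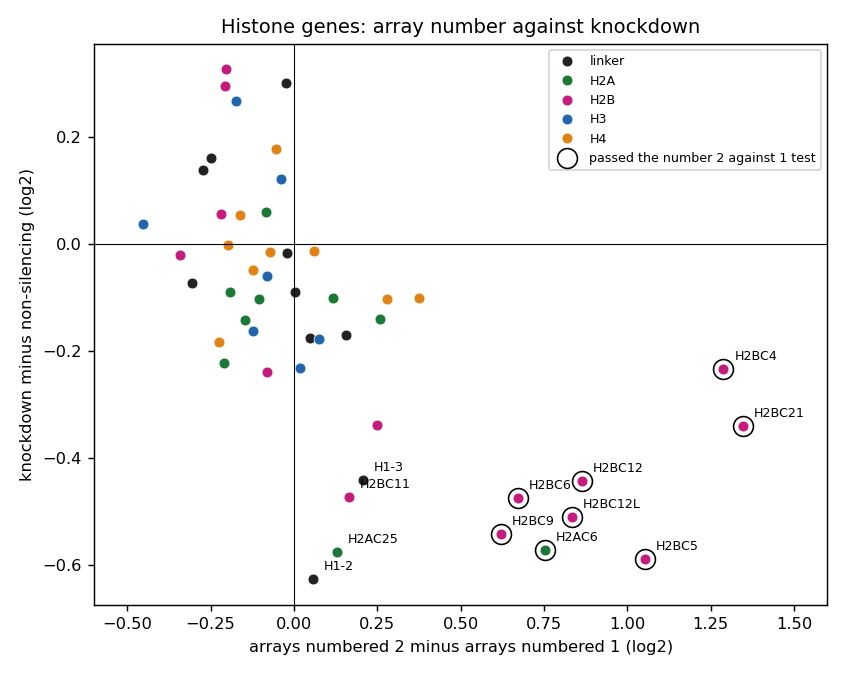
Knockdown minus non-silencing difference (vertical axis, log2) against arrays numbered 2 minus arrays numbered 1 (horizontal axis, log2) for the 49 histone genes by class. Rings mark the 8 genes that passed the limma test of the number, which lie between 0.62 and 1.35 on the horizontal axis. H1-2 and H2AC25 lie low on the vertical axis and near 0 on the horizontal one.

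The octamer letters and the array number overlapped in part. Of the 16 genes with the letters in the 250 bases, 6 passed the number test and 5 were 1.25-fold lower within both numbers, and 10 were at or above the median signal. Of the 27 without them, 1 passed the number test and 4 were 1.25-fold lower, and 14 were at or above the median. H2BC12L, which also passed, had no promoter in the table. All 16 are H2A or H2B genes, so these counts also follow the classes. Some neighbouring pairs share an octamer that is counted for both genes, so the 16 are not separate sites.

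Probe sets that name several histone genes gave a further view, since 19 of 91 RefSeq genes of these names were only found there and 23 others were not analysed here. Of 20 such probe sets, 16 lay below 0 and 6 were at least 1.25-fold lower within both numbers, against 1.21% of all 54675 probe sets. A probe set for H2AC19 and H2AC18 read 10.24 and 10.94 against 9.73 and 10.43, a difference of -0.51. A probe set for 10 H3 genes read 7.24 and 8.16 against 6.78 and 7.82, a difference of -0.40. Both had the array order of the bright H2B genes, with number differences of 0.71 and 0.98. A dimmer probe set for the same 10 H3 genes and H2AC7 did not. It read 6.06 and 5.94 against 5.60 and 5.55, a difference of -0.43 without overlap, with a number difference of -0.08.

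H4 genes also had several such probe sets. The brightest probe set for 14 H4 genes read 10.49 and 10.36 against 10.56 and 10.45, which is 0.08 higher. A dimmer one for the same genes lay 0.29 higher without overlap, and a further one differed by -0.27, also without overlap. Probe sets for the same H4 genes therefore disagreed in sign.

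On chromosome 6 the 42 genes fell into 3 runs of neighbours. The run of 26 genes that holds H1-2, H2AC6 and H2BC5 had a median difference of -0.12 and held 6 of the 10 genes lower by 1.25-fold. The run of 3 genes, H2BC11, H2BC12 and H4C9, had a median of -0.44. The run of 13 genes had a median of -0.02 and held 0 of the 10, but 10 of these 13 genes were below the median signal.

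Replication-independent histone genes lay near 0. Of 15 listed genes, 8 were measured beside the clustered set, with a median difference of 0.05 and 3 below 0. H2AZ1, which encodes H2A.Z, read 13.61 and 13.62 against 13.70 and 13.62. MACROH2A1, for the macroH2A core histone, differed by 0.06, MACROH2A2 by 0.21 and H2AJ by -0.13, the last 2 without overlap. Their range, from -0.13 to 0.21, did not reach the differences of H1-2 or the bright H2B genes, but the difference between the sets was not tested.

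Genes listed for roles around histone messenger RNA and protein had list medians near 0. SLBP, which binds the stem-loop, read 11.93 and 11.75 against 12.10 and 12.08, which is 0.25 higher without overlap. YY1, a transcription factor, differed by -0.05 and CPSF3, the endonuclease that cuts histone pre-mRNA, by -0.12. The list of transcription and 3′ end processing had a median of 0.03 over 18 of 19 genes, with 8 below 0. Histone chaperones had a median of 0.02 over 21 genes, with 9 below 0. Within both array numbers the knockdown array was the higher one for 10 of the 21 and the lower one for 2. Of 12584 genes at or above the median signal, it was the higher one for 3980 and the lower one for 3627. Of the chaperones, NAP1L1 differed by 0.11, RBBP7 by -0.06, UBN1 by 0.27 and DAXX by 0.16, the last 2 without overlap. The exosome and histone mRNA decay list had a median of 0.03 over 17 of 18 genes, with 7 below 0. Not all genes of that list are specific to histone messenger RNA. Among them PNPT1 differed by 0.18, EXOSC3 by 0.07 and EXOSC2 by -0.12.

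S phase genes were the companion list with a negative median, -0.09 over 31 of 32 genes, with 26 below 0. That median was -0.14 within number 1 and 0.0044 within number 2. MCM6, a subunit of the replicative helicase, read 11.87 and 11.87 against 11.41 and 11.67, a difference of -0.33, and GINS1, which works with that helicase, differed by -0.29. TYMS, for thymidylate synthase, differed by -0.09 and RRM1, a subunit of ribonucleotide reductase, by -0.04. G2 and mitosis genes had a median of 0.01 over 22 genes, with 11 below 0, where TOP2A differed by -0.06, NUSAP1 by -0.19 and BUB1 by -0.11. In all 6 lists, 0 genes had a limma adjusted or unadjusted p under 0.05 and 0 were 1.25-fold lower within both numbers. The part of S phase gene levels in the histone differences was not tested.

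**Figure D4:**
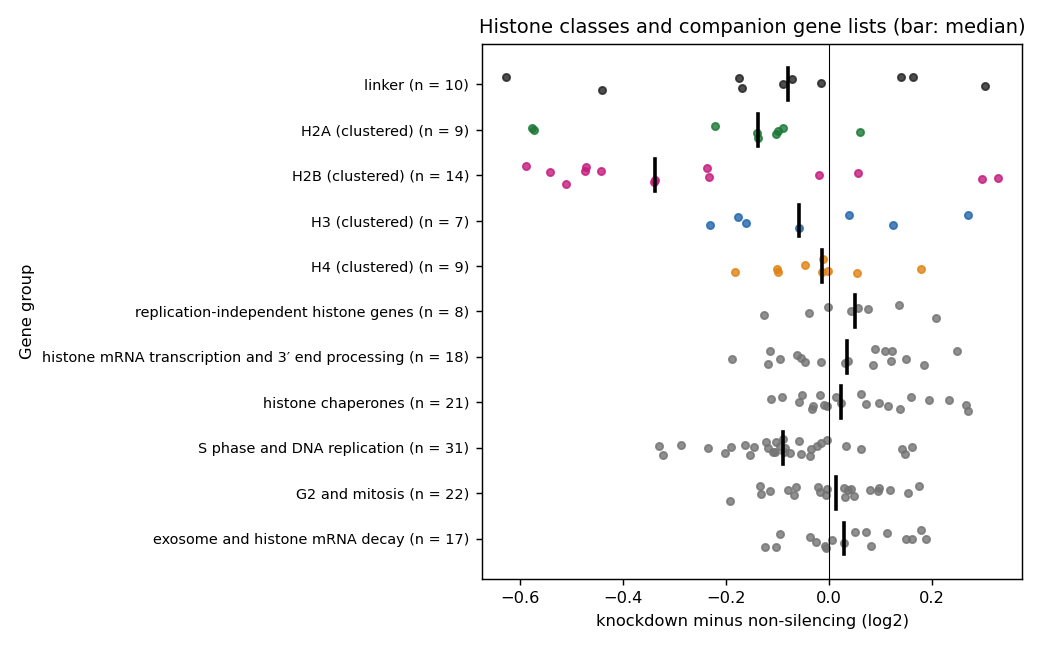
Knockdown minus non-silencing difference (horizontal axis, log2) for each gene of the 5 histone classes and the 6 companion lists, with 1 point per gene, a vertical bar at each median and a line at 0. The H2B bar lies at -0.34 and the S phase bar at -0.09, and the other companion lists have bars between 0.01 and 0.05.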

How the data were processed

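Total RNA of KM-H2 cells was extracted on columns and labelled with 2 cycles of amplification, per the labels' protocols, a step that can favour 3′ ends and polyadenylated transcripts. The deposited values are log2 signals, for which the submitters' processing notes name RMA with no software or version. RMA gives arrays nearly the same distribution (medians 5.12, 5.12, 5.11 and 5.10), so a change in total RNA cannot be seen. The number of arrays, 2 in each group, limits the precision.

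Of 54675 probe sets, 41097 had 1 gene symbol in the platform's annotation, 1801 several and 11777 none. Symbols were looked up in RefSeq's gene table (assembly GRCh38.p14), which lacked the genes of 54. The brightest probe set stood for each gene. No further normalization was applied. The groups were compared with limma 3.58.1 in R 4.3.3 (lmFit and eBayes, no covariates, two-sided), and array number 2 with 1 in a fit with terms for group and number. Benjamini-Hochberg adjustment ran over all 19775 genes, and the threshold was 0.05. With 2 arrays a group, the smallest exact permutation p is 0.333. The fit was tested on simulated data.

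Named genes were, in each class, the 3 brightest and the 3 with the largest difference among genes whose groups do not overlap, and in each companion list 2 and 2. H2BC6, H2BC9, H2BC21, H2BC4, H2BC13, H4C8, H1-4, H1-5 and the several-gene probe sets were picked with their values known. The genes and lists were chosen with earlier results of these data known. Alternatives were quantile normalization, median centring, the mean of all probe sets, no shared-probe suffixes, a filter on dim genes, other variance models, a replicate block and leaving out each array. Chosen after seeing the data were other sets of members and the 1.25-fold count.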

Additional observations from a re-analysis of the deposited data

How the results depend on the processing

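Across all settings run, 0 histone genes passed the limma test of knockdown against non-silencing. Of all genes, 0 passed in the main fit, 3 with a trended and robust variance, 72 with the replicate block and 0 to 1 when each array was left out. Same-numbered arrays deviated together (r = 0.65 over all genes and 0.80 over the histone genes), but no label links a number to a common preparation, so the number was not a block in the main fit and differences within a number are values without a test. With the replicate block PTPN1 had a limma adjusted p of 0.0251, and the lowest of a histone gene was 0.155 (H2BC5), with 15 of the 49 at an unadjusted p under 0.05, against 2046 of 19775 genes. The median over the histone genes was -0.16 with genes, or members, at or above the median signal, and the linker median -0.018 with genes of chromosomes 1 and 6 that are not pseudogenes. The H2B median was -0.23 without shared-probe suffixes, -0.48 for bright genes and -0.68 to -0.082 with each array left out. The H3 median was -0.16, 0.10 and -0.12 to 0.0047 in these settings. The number test called 3048 genes among bright genes, against 1948, and 3 histone genes without shared-probe suffixes, against 8, of which 6 then had no probe set. Signs turned for MACROH2A1 without those suffixes (-0.14) and for YY1 (0.0057) and BUB1 (0.0086) with the mean of all probe sets. With each array left out they turned for H1-10 (-0.34 to 0.20), H2AC14 (-0.22 to 0.044), H3C8 (-0.12 to 0.0047), H4C9 (-0.28 to 0.072), MACROH2A1 (-0.12 to 0.24), NAP1L1 (-0.014 to 0.24), RRM1 (-0.11 to 0.038), TOP2A (-0.15 to 0.022), PNPT1 (-0.037 to 0.40) and EXOSC3 (-0.11 to 0.25), and also for H1-4, H1-5, H2BC4, H2BC21 and H4C8, which the rule did not name. The causes were not tested. The other genes named by the rule kept their direction under the alternatives run. Below the median signal, differences are compressed and their sizes uncertain.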
